A study of Mus musculus with 10 samples.

Results

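The 10 genes described here encode proteins of the Bcl2 family, which decides at the outer membrane of mitochondria whether a cell lives or dies. They were chosen by name, as 4 survival genes (Bcl2, Bcl2l1, Bcl2l2 and Mcl1), a pair of pore-forming death genes (Bak1 and Bok) and 4 death genes of the BH3-only kind (Bid, Bad, Bcl2l11 and Bmf), out of 20405 genes measured in embryonic mouse cortex. All 10 were found on the array, by 12 probe sets, a probe set being the group of probes that reads a gene. Bcl2 and Bak1 each had 2 probe sets, and the one with the higher mean over the 10 arrays was used.

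Total RNA came from the pair of cortices of single mouse embryos at E10.5. The 5 control arrays were wild-type C57BL/6 embryos. The 5 mutant arrays were Magoh-Mos2 heterozygous embryos on the same C57BL/6 background, so each kept a normal copy of Magoh. Both genotypes had the same age, and the labels name no further allele or agent. The Magoh protein belongs to the core of the exon junction complex, which marks spliced mRNA at its exon boundaries, and the allele is carried by the whole embryo and not by cortex cells alone.

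Survival proteins of the family hold the pore-forming proteins Bax and Bak in check, and BH3-only proteins release them, after which the outer membrane leaks cytochrome c and caspases are switched on. Programmed death of this kind trims progenitors and young neurons in the developing brain, where loss of Bcl-x or of Mcl1 in mice is known to kill neural cells. Many of these proteins are governed after transcription, by splicing, phosphorylation, cleavage or decay. In human cell lines, exon junction complex proteins are known to influence which splice forms of Bcl-x, Bim and Mcl1 are made. The array gives 1 value per probe set, so splice forms of opposite function were summed here and were not told apart.

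Levels are log2 RMA values, in which a step of 1 is a doubling of signal, and differences are mutant minus wild type on that log2 scale. The spread is given as SD over n = 5 arrays of a genotype. Probes differ in brightness per transcript, so levels were compared between arrays and not between genes. Probe sets titled as negative controls gave a guide to background, and 95% of them read below 8.57 on an average array. Their title does not say what they target, and whether they read some transcript was not tested. Their medians were 5.34 to 5.82 and the medians of all genes 7.15 to 7.23 over the arrays, so 8.57 is a high guide. A level below it does not show that a gene is silent. Bcl2l1 and Mcl1 lay above 8.57 in both genotypes, Bmf lay above it in wild type only, and the other 7 lay below it in both. Of all 20405 genes, 5235 lay above it in both genotypes and 14840 below it in both, so most genes on the array lay below it. For the 8 members not above it in both genotypes, part of the signal can be background, and a true difference can be understated.

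The mutated gene went with the array labels. Magoh was 11.05 ± 0.09 in wild type and 10.21 ± 0.18 in mutants (SD, n = 5 each), and its highest mutant array, 10.37, lay below its lowest wild-type array, 10.90. Its log2 difference of -0.84 (SE 0.08) had a limma adjusted p of 8.5e-05. Of 10 markers of cortical progenitors, 8 lay above 8.57 in both genotypes. So did 2 of 11 markers of young cortical neurons, 6 of 11 of primitive red cells and 6 of 10 of mesenchyme. For endothelium it was 1 of 10 and for macrophages 0 of 10. In the whole cortex, fewer cells of a type and less RNA per cell cannot be told apart.

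None of the 10 family genes passed the test, which asked for a limma p, adjusted over all genes by Benjamini-Hochberg, under 0.05. In limma 0 of 10 were called higher, beside 0.26% of all genes tested, and 0 lower, beside 0.314%, or 0.573% in both directions (117 of 20405). When p was left unadjusted, with the same limit of 0.05, 1 member was higher (Bcl2), beside 4.56% of all genes, and 1 lower (Bmf), beside 4.68%, so 2 of 10 beside 9.24%. The limma adjusted p of the members ran from 0.406 to 0.992. Over all genes the number called was 66, 64 and 71 when wild-type arrays 1, 2 and 3 were left out in turn and 185 when mutant array 1 was, and in each of these settings the number of members called was 0.

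For each gene taken singly, the size of a change in array signal that these data leave room for is bounded. For the 8 members not above 8.57 in both genotypes, a change in transcript can be larger than that of the signal. The 95% intervals of the 10 differences all lay between -0.30 and 0.32 on the log2 scale, or between 0.812 and 1.25 of the wild-type signal. Each interval is for a single gene, with no adjustment for reading 10 together. Differences ran from -0.16 for Bmf to 0.17 for Bcl2. Of the 10, 6 were positive and 4 negative, with a median of 0.01, beside a median of 0.0025 over all genes. The median size of difference without regard to sign was 0.06 for the members and 0.06 for all genes. A missed threshold does not show that the genotypes are equal, and smaller changes were not detectable with 5 arrays a genotype.

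**Figure D1:**
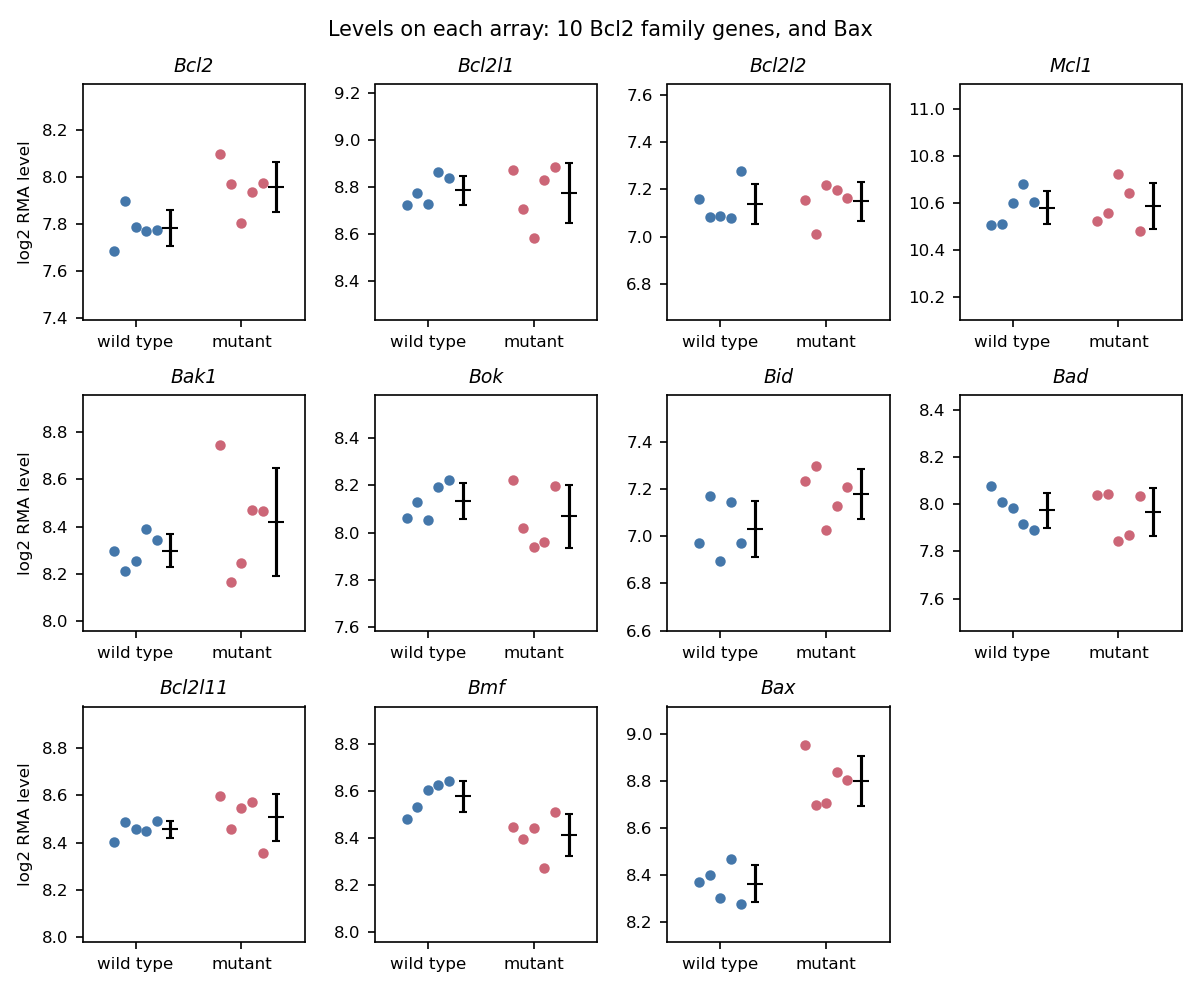
Log2 RMA level (vertical axis, 1 unit tall in every panel) of the 10 family genes and of Bax on the 5 wild-type (blue) and 5 mutant (red) arrays, in replicate order from left to right; black bars are the mean and SD. The genotypes overlap in all 10 family genes, while all 5 mutant arrays of Bax, the lowest at 8.70, lie above its highest wild-type array at 8.47. Over all genes tested, the genotypes fail to overlap in 2.82%, so overlap is the usual case.

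Among the survival genes, Bcl2 had the largest difference. Bcl2, the founding member of the family, which guards mitochondria and is strongly expressed in the embryonic nervous system, read 7.69, 7.90, 7.79, 7.77 and 7.77 on wild-type arrays 1 to 5 and 8.10, 7.97, 7.80, 7.93 and 7.97 on mutant arrays 1 to 5. In 4 of 5 mutants it was above the highest wild-type array, and the remaining mutant array, number 3, lay within the wild-type range. The means were 7.78 ± 0.08 and 7.96 ± 0.11, a difference of 0.17 (SE 0.07, 95% interval 0.03 to 0.32), or 1.13 times the wild-type signal. Its unadjusted p in limma was 0.0217 and its adjusted p 0.406, so the difference did not pass. Leaving out single arrays gave 0.14 (without mutant array 1) to 0.21 (without mutant array 3), with limma adjusted p of 0.281 or more. Its second, dimmer probe set had means of 5.89 and 5.97, which differ by 0.08 (SE 0.09), near the medians of the negative controls, which were 5.34 to 5.82.

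Bcl2l1, which encodes Bcl-xL, the main guardian of newborn neurons, and from the same gene the shorter death-promoting form Bcl-xS, had means of 8.79 and 8.78, a little above the background guide of 8.57. It read 8.72, 8.78, 8.73, 8.86 and 8.84 on the wild-type arrays and 8.87, 8.71, 8.59, 8.83 and 8.88 on the mutant arrays. The mutant values lay on both sides of the wild-type values, 2 above their highest and 2 below their lowest. The difference was -0.01 (SE 0.07, 95% interval -0.16 to 0.14, limma adjusted p = 0.983), and its sign turned in 4 of the 10 settings that left out a single array, within -0.04 to 0.04.

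Mcl1, a short-lived survival protein that neural progenitors need, was the one member far above background. It read 10.51, 10.51, 10.60, 10.68 and 10.60 in wild type and 10.52, 10.56, 10.72, 10.64 and 10.48 in mutants. The ranges nearly coincided, with 1 mutant array above and 1 below the wild-type range. Its difference was 0.01 (SE 0.07, 95% interval -0.13 to 0.15, limma adjusted p = 0.992), with a sign that turned in 4 of the 10 settings that left out a single array. The 95% interval left room for 0.911 to 1.11 times the wild-type signal of Mcl1.

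Bcl2l2, which encodes Bcl-w, a survival protein best known from mature neurons and testis, ranged from 7.08 to 7.28 in wild type and from 7.01 to 7.22 in mutants. The ranges overlapped in part, with 1 mutant array below the wild-type range and the other 4 within it. The difference was 0.01 (SE 0.07, 95% interval -0.13 to 0.15, limma adjusted p = 0.976), and its sign turned with array weights and in 5 of the 10 settings that left out a single array.

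Of the pore-forming genes, Bak1 had the widest spread among mutants. Bak1, whose protein sits in the outer membrane and forms pores beside Bax, read 8.30, 8.21, 8.25, 8.39 and 8.34 in wild type and 8.75, 8.16, 8.24, 8.47 and 8.47 in mutants. Mutant arrays 1, 4 and 5 lay above the wild-type range and mutant array 2 below it. The means were 8.30 ± 0.07 and 8.42 ± 0.23, a difference of 0.12 (SE 0.09, 95% interval -0.08 to 0.32, limma adjusted p = 0.776). It was 0.04 when mutant array 1 was left out and -0.0041 when mutant array 5 was left out as well. The second Bak1 probe set went the other way, from 6.99 in wild type to 6.88 in mutants, a difference of -0.11 (SE 0.08). With both probe sets averaged the difference was 0.0052, so these data give no settled direction for Bak1.

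Bok, a relative of Bax and Bak whose protein is kept low by degradation, read 8.06, 8.13, 8.05, 8.19 and 8.22 in wild type and 8.22, 8.02, 7.94, 7.96 and 8.20 in mutants. Mutant arrays 2, 3 and 4 lay below the wild-type range, mutant array 5 lay within it and mutant array 1 at its top. The difference was -0.06 (SE 0.07, 95% interval -0.22 to 0.09, limma adjusted p = 0.865), with -0.10 when mutant array 1 was left out and -0.03 when mutant array 3 was. Without mutant arrays 1 and 5 together it was -0.16 (limma adjusted p = 0.202).

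None of the BH3-only genes passed, and their differences had both signs, from 0.15 for Bid to -0.16 for Bmf. Bid, which carries death receptor signals to mitochondria once caspase-8 has cut it, read 6.97, 7.17, 6.90, 7.15 and 6.97 in wild type and 7.24, 7.30, 7.02, 7.13 and 7.21 in mutants. In 3 of 5 mutants it was above the highest wild-type array, and mutant arrays 3 and 4 lay within the wild-type range. The difference was 0.15 (SE 0.07, 95% interval -0.01 to 0.31), or 1.11 times the wild-type signal, with a limma adjusted p of 0.571. Both means, 7.03 ± 0.12 and 7.18 ± 0.11, lay well under the background guide of 8.57.

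Bmf, a BH3-only gene whose protein is tethered to the motor complexes of the cytoskeleton, had the only negative difference whose 95% interval left out 0. It read 8.48, 8.53, 8.60, 8.62 and 8.64 in wild type and 8.45, 8.39, 8.44, 8.27 and 8.51 in mutants. In 4 of 5 mutants it lay below the lowest wild-type array, and mutant array 5 lay within the wild-type range. The means were 8.58 ± 0.07 and 8.41 ± 0.09, a difference of -0.16 (SE 0.06, 95% interval -0.30 to -0.03), or 0.893 of the wild-type signal. The unadjusted p in limma was 0.0223 and the adjusted p 0.411. With single arrays left out the difference was -0.19 (without mutant array 5) to -0.13 (without mutant array 4), and with mutant arrays 1 and 5 both left out it was -0.21, with a limma adjusted p of 0.112.

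Bcl2l11, which encodes Bim, the BH3-only protein that kills neurons deprived of growth factors, read 8.40, 8.49, 8.46, 8.45 and 8.49 in wild type and 8.60, 8.46, 8.55, 8.57 and 8.36 in mutants. It had the tightest wild-type values of the family, with an SD of 0.04, and mutant arrays lay both above (3) and below (1) them. The difference was 0.05 (SE 0.06, 95% interval -0.08 to 0.18, limma adjusted p = 0.88). Leaving out mutant array 1 gave 0.03 and leaving out mutant array 5 gave 0.09. Bad, which growth factor signalling silences by phosphorylation, ranged from 7.89 to 8.08 in wild type and from 7.85 to 8.04 in mutants. Its difference was -0.01 (SE 0.07, 95% interval -0.15 to 0.13, limma adjusted p = 0.985), with a sign that turned in 3 of the 10 settings that left out a single array.

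**Figure D2:**
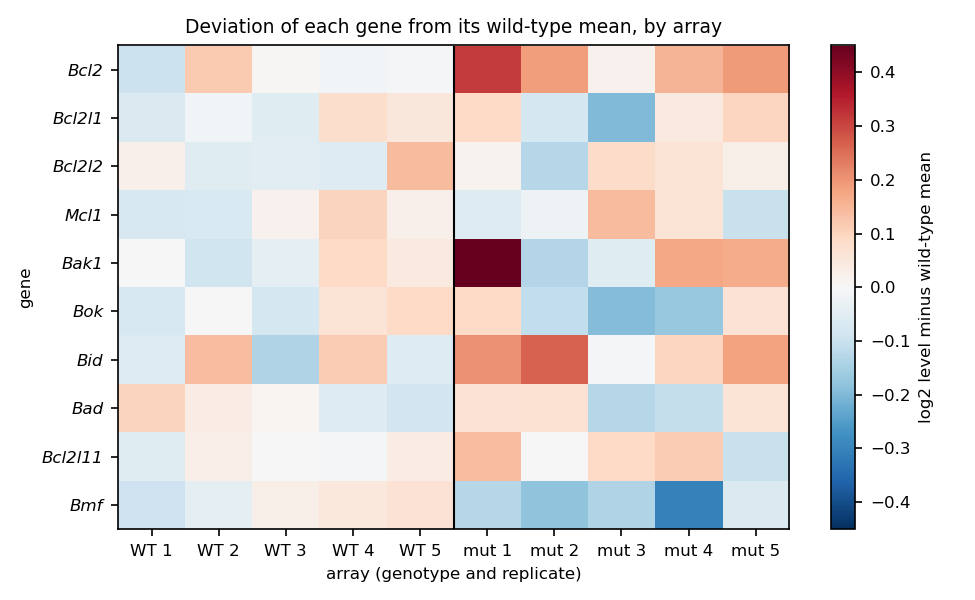
Each cell shows the log2 level of a gene on an array minus that gene's wild-type mean (red higher, blue lower), for the 5 wild-type and 5 mutant arrays. Bcl2 is above its wild-type mean and Bmf below it on all 5 mutant arrays, and the strongest single deviation is Bak1 on mutant array 1 at 0.45.

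The mutant arrays were more spread than the wild-type arrays for most of the family. The SD was larger in mutants for 8 of the 10 genes, with Bcl2l2 and Bid the exceptions, where the same held for 73.3% of all genes tested. The median SD of the members was 0.07 in wild type and 0.10 in mutants. On mutant array 1, 4 genes (Bcl2, Bak1, Bok and Bcl2l11) had their highest mutant value, and on mutant array 3, 5 genes (Bcl2, Bcl2l1, Bok, Bid and Bad) had their lowest. The wild-type arrays were alike in this, with the highest wild-type value of 4 members on array 5 and the lowest of 5 on array 1. These counts were not set beside those of all genes. Mutant array 1 also had the largest mean deviation from wild type over all genes, 0.18 where the other mutant arrays had 0.11 to 0.15. Limma gave mutant arrays 1 and 5 the lowest weights, 0.254 and 0.411, where the other 8 had 0.914 or more. With both left out, the 10 differences ran from -0.21 to 0.12 and 0 were called, with a lowest limma adjusted p of 0.112.

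Among 18 further genes of the family, all measured, 1 rose, beside 0.26% of all genes, and 17 did not pass. The gene that rose was Bax, the pore-forming partner of Bak and a textbook target of p53. Bax read 8.37, 8.40, 8.30, 8.47 and 8.28 in wild type and 8.95, 8.70, 8.71, 8.84 and 8.80 in mutants, so that the genotypes did not overlap, as in 2.82% of all genes. Its difference was 0.43 (SE 0.07, 95% interval 0.29 to 0.58), or 1.35 times the wild-type signal, with a limma adjusted p of 0.00477. All 5 wild-type arrays of Bax lay below the background guide of 8.57 and all 5 mutant arrays above it, so the fold is one of array signal, and part of the wild-type signal can be background. With single arrays left out the difference was 0.40 to 0.46, and in each case Bax stayed past the threshold. The lower bound for Bax lay above the upper bound of the 95% interval for 7 of the 10 members, the exceptions being Bcl2, Bak1 and Bid. This sets intervals side by side, and the difference between genes was not tested.

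The further BH3-only genes that p53 is known to induce did not pass. Bbc3, which encodes Puma, ranged from 6.57 to 6.94 in wild type and from 6.76 to 6.98 in mutants, a difference of 0.14 (SE 0.08, limma adjusted p = 0.629) that was 0.09 without mutant arrays 1 and 5 together. Pmaip1, which encodes Noxa, ranged from 7.26 to 7.43 and from 7.31 to 7.46, a difference of 0.04 (SE 0.06, limma adjusted p = 0.902). Each lay far under 8.57, where a change can be hidden. The 18 included Bcl2a1a, Bcl2a1b and Bcl2a1d, near-identical copies whose probes can read each other, so their values are uncertain. The median difference over the 18 was 0.01.

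**Figure D3:**
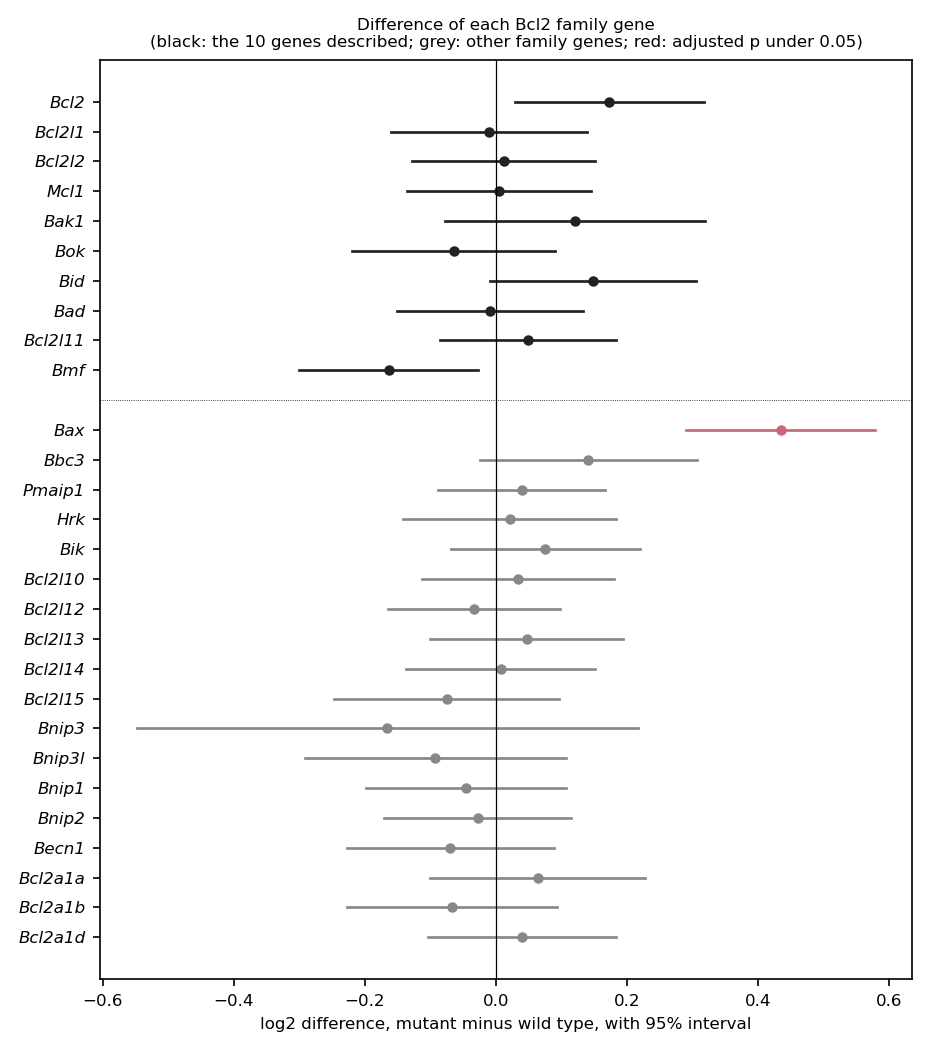
Log2 difference of each family gene (horizontal axis, mutant minus wild type), where dots are the limma estimates and lines the 95% intervals; the 10 genes described are in black above the dotted line and 18 further family genes below it. The interval of Bax, 0.29 to 0.58, is the one drawn in red because its adjusted p is under 0.05.

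The starts of 3 family genes are shown because Bax was the gene that rose, and Bcl2 and Bmf were the members with the highest and the lowest difference. Each window runs, 5′ to 3′ on the gene's strand, from 250 bases before to 50 bases after a transcription start in RefSeq, build GRCm38.p6. Capitals mark exact matches, and in Bax also the near match beside one, to the decamer consensus of p53, a motif of 10 letters of which a full binding site holds a pair, and which reads alike on both strands, so that both strands were searched. The Bax window lies at chr7:45466849-45467148, the Bmf window at chr2:118544538-118544837 and the Bcl2 window at chr1:106714241-106714540, all 3 on the minus strand.
Bax: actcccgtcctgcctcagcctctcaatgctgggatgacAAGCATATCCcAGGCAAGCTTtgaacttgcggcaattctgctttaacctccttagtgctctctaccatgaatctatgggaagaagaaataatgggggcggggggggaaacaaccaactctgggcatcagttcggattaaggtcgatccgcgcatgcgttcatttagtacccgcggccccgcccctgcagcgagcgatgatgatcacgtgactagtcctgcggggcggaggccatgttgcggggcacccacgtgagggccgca
Bmf: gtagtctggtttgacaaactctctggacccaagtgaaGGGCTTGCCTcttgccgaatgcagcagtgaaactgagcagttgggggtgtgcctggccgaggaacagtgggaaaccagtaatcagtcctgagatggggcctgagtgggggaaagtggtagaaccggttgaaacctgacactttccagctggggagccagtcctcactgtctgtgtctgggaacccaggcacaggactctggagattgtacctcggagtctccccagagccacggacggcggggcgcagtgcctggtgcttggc
Bcl2: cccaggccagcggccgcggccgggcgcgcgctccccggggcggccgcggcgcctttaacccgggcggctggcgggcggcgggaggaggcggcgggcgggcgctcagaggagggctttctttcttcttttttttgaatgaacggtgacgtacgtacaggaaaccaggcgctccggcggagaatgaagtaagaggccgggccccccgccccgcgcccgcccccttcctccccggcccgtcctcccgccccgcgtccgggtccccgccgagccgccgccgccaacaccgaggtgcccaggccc
In the Bax window an exact decamer stood 201 bases before the start, next to another matching 9 of 10 letters with 1 base between them. Of 3 Bmf windows, at different starts, the one shown was picked because it held an exact decamer, 213 bases before its start, while the remaining 2 held none. The Bcl2 window, rich in CG with 44 CG pairs, held none. All 10 members had a window in the table. Over their 16 windows 1 held an exact decamer, or 6.25%, beside 8.36% of all 32851 windows, and 0 held the pair seen in Bax, beside 0.177% of all. The spacing and mismatch allowed for the pair were chosen after the Bax sequence and a first, looser search had been seen. A match of letters is no evidence of binding, and elements outside these windows, such as in introns, were not searched.

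**Figure D4:**
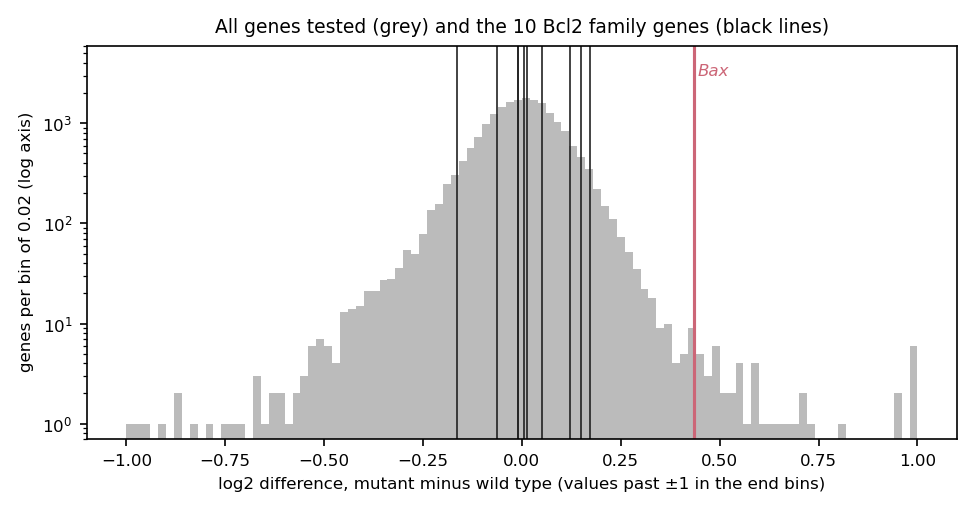
Histogram of the log2 difference (horizontal axis) of all 20405 genes tested, with the number of genes per bin on a log axis; black lines mark the 10 family genes and the red line Bax. The black lines lie between -0.16 and 0.17, in the bulk of the genes, and Bax at 0.43 lies in the right tail.

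Genes that act below the family at mitochondria gave no call. Of 12 measured, in limma 0 rose, 0 fell and 12 did not pass, beside 0.573% of all genes called. By unadjusted p 2 were lower, beside 4.68% of all genes, and 0 higher, beside 4.56%. The median difference was -0.02. Vdac3, a channel of the outer membrane, differed by -0.25 (SE 0.10, limma adjusted p = 0.448) and Aifm1, a flavoprotein of the respiratory chain that can leave mitochondria in dying cells, by -0.23 (SE 0.10, limma adjusted p = 0.477). Vdac3 was lowest on mutant arrays 1 and 5, at 9.93 and 9.89 where its other 8 arrays read 10.32 or more, and its difference without both was -0.06. Aifm1 was lowest on mutant array 1, at 8.54, and its difference without that array was -0.13. Apaf1, which assembles the caspase-9 platform once cytochrome c is free, differed by 0.10 (SE 0.07, limma adjusted p = 0.766), and by 0.15 without mutant array 1. Vdac2, the channel that holds Bak at mitochondria, differed by -0.08 (SE 0.08, limma adjusted p = 0.818), and by 0.02 with mutant arrays 1 and 5 both left out.

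Genes whose products steer family members were likewise without a call over all arrays. Of 19 measured, in limma 0 rose, 0 fell and 19 did not pass, beside 0.573% of all genes called. Their median difference was -0.04. By unadjusted p 0 were lower, beside 4.68% of all genes, and 1 was higher, beside 4.56%. That 1 was Foxo3, a transcription factor known to switch on Bcl2l11, which ranged from 8.90 to 9.22 in wild type and read 8.82, 9.52, 9.46, 9.88 and 9.60 on mutant arrays 1 to 5. Mutant arrays 2 to 5 lay above the wild-type range and mutant array 1 below it. Its difference of 0.44 (SE 0.14) had a limma adjusted p of 0.243, and without mutant array 1 it was 0.60 with a limma adjusted p of 0.00378. Without that array Bcl2l11 differed by 0.03 (limma adjusted p = 0.928). Bcl2l11 lay below 8.57 in both genotypes, and a link between Foxo3 and Bcl2l11 was not tested. Trp53, which encodes p53, differed by 0.18 (SE 0.09, limma adjusted p = 0.547), and the ubiquitin ligase Huwe1 and the deubiquitinase Usp9x, which destroy and spare Mcl1 protein, by -0.13 each (SE 0.07, limma adjusted p = 0.628 and 0.565). Without mutant arrays 1 and 5 together the difference was 0.07 for Trp53 and -0.05 for Usp9x, and with array weights it was 0.08 and -0.09. That of Huwe1 was larger in both settings, -0.18 and -0.18 (limma adjusted p = 0.21 and 0.195).

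Markers of the cell types that a dissection can hold moved in part with genotype, and their part in the values of Bax and of the members was not tested. Of 11 neuron markers, 6 fell, beside 0.314% of all genes. The log2 of the summed linear level of these 11 markers was 11.88 to 12.18 in wild type and 11.30 to 11.68 in mutants. By unadjusted p, 4.56% of all genes were higher and 4.68% lower. Of 10 progenitor markers, 0 passed in limma and 5 were lower by unadjusted p, with sums of 13.68 to 13.82 and 13.48 to 13.63. In limma 0 of 11 measured red cell markers passed (7 higher and 0 lower by unadjusted p), with sums of 14.61 to 15.00 and 14.80 to 15.09. Endothelial markers (0 of 10 passed in limma, 3 higher by unadjusted p) summed to 11.17 to 11.43 and 11.38 to 11.49. Sums of macrophage markers were 9.80 to 9.97 and 9.61 to 9.87, with 0 of 10 past the limma threshold and 4 lower by unadjusted p. Sums of mesenchyme markers were 12.67 to 12.87 and 12.47 to 12.77, with 0 of 10 past it and 3 lower by unadjusted p.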

How the data were processed

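Expression was measured in 10 cortices, 5 wild type and 5 Magoh mutant, on Affymetrix Mouse Gene 1.0 ST arrays with 300 ng of total RNA each, per the labels' protocols. The deposited values are log2 levels, 1 column per array, for which the submitters' processing notes name Affymetrix Expression Console and RMA, with no version. RMA corrects background, normalizes between arrays and summarises probes, which removes a level common to all genes and compresses fold changes. The other deposited values used, annotation text (accession, Entrez number, title), named the probe sets. That file also has 10 per-sample columns whose names match no label, and these were not used. The number of arrays, 5 a genotype, limits the precision.

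Of 35557 probe sets, 6546 were controls (5222 negative), 23322 matched a gene of the RefSeq table of GRCm38.p6 by Entrez number and 465 by accession, and 5224 were left without a gene. The probe set with the highest mean was kept where a gene had several, which left 20405 genes with no filter on dim ones. Mutant minus wild type was fitted with limma 3.58.1 in R 4.3.3 without covariates and checked on simulated data, with Benjamini-Hochberg adjustment over all genes, a threshold of 0.05 and 95% intervals from the fit. Per the labels the replicates are biological, a pair of cortices from 1 embryo each. The labels give no litter or hybridisation day, so no batch was tested.

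The members and lists were chosen with earlier results of these data known. Beside the 10 members and Magoh, the rule named genes of the lists past the threshold, or otherwise up to 4 with the smallest p, and Bax, Bbc3 and Pmaip1 whatever their values. Alternatives covered normalization, probe sets, dim genes, variance, array weights, the replicate number, the threshold and arrays left out. The promoter windows and the motif search were added after the data were seen.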

Additional observations from a re-analysis of the deposited data

Results flagged for a closer look

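Among 22 named genes in each genotype (44 groups of 5 arrays), 2 groups held an array set apart from the other 4 by a gap of more than 0.71 of the group's range, and chance alone marks about 1 group in 20. Both were of Aifm1. Its wild-type array 1 read 9.01, where the next lowest read 9.18, and its mutant array 1 read 8.54, where the next lowest read 8.95. None of the 10 family genes met this rule in either genotype.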

How the results depend on the processing

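The count of 0 family genes called was the same under all 20 alternatives in limma, with a lowest adjusted p of 0.112 over 198 recomputed member values. With dim genes left out, Bcl2l2 and Bid were not tested, so 8 members remained. Bax was called under every one of the 20, and 0 of 12 mitochondrial death genes were called under any. The total of 117 called genes became 408 with array weights, 224 at an adjusted p under 0.1 and 502 without mutant arrays 1 and 5 together, a pair set apart by an earlier analysis of these data. With single arrays left out it was 64 to 185. The cause was not tested. Regulator genes called were 1 (Foxo3) with array weights and 1 without mutant arrays 1 and 5 together (limma adjusted p = 0.00406 and 0.00591), and 0 to 1 with single arrays left out.

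Small differences turned sign. Bcl2l2 was -0.0069 with array weights, Bak1 -0.0041 and Vdac2 0.019 without mutant arrays 1 and 5 together. With single arrays left out, Bcl2l1 ran from -0.0369 to 0.0378, Bcl2l2 from -0.0053 to 0.0474, Mcl1 from -0.029 to 0.0317 and Bad from -0.0299 to 0.0214. The replicate numbers were shared by the genotypes. Deviations of same-numbered arrays correlated at -0.07 to 0.36, and 3 of 10 arrays correlated best with their own number. The 0.36 was of the arrays numbered 4 and was the highest of all pairs of a wild-type and a mutant array. The next was 0.18, of wild-type array 3 with mutant array 2. What the arrays numbered 4 share was not tested, and the numbers were not taken as pairs in the main fit. With the replicate number as a block 83 genes were called, among them 0 family members and Bax. Background in the signal can limit the 8 members with a mean under 8.57 more than Bcl2l1 and Mcl1.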
